A study of Desmophyllum pertusum with 36 samples.

Results

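The 100 transcripts described here were lower at pH 7.6 than at pH 7.9 in polyps of all 3 sampled colonies of the coral Lophelia pertusa at week 8.5, but not in all 3 colonies at week 2. They were chosen by these very differences. Counts were scaled to the library total (CPM, counts per 1000000 counts of the library) and put on a log2 scale after adding 0.5. The level at pH 7.6 minus the level at pH 7.9 was then taken within each colony and week, and is called the pH difference below. Members had a pH difference of -0.5 or less in all 3 colonies at week 8.5 and of 0 or more in at least 1 colony at week 2, a mean of at least 1 CPM, and a place outside the 100 most abundant transcripts. Of 75743 transcripts in the table, 41829 passed the limits on level, and these are called the kept transcripts. Of them, 480 met every condition, and the 100 with the most negative mean pH difference at week 8.5 minus that at week 2 are the members. All 100 had enough counts to be tested.

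Lophelia pertusa, also called Desmophyllum pertusum, builds reefs in cold, dark water. It lives without symbiotic algae, feeds on plankton and lays down a skeleton of aragonite, a form of calcium carbonate. Acidified seawater holds less carbonate ion, and stony corals form their skeleton from a fluid whose pH their tissue raises by ion transport. The transcripts carry numbers and the table does not pair them with gene names or sequences, so no function can be given for any member. For the same reason, whether a member belongs to the coral or to organisms living with it was not tested.

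The groups were pH 7.6 and pH 7.9 at weeks 2, 4.5 and 8.5, each with 3 libraries, 1 from colony 1, 1 from colony 3 and 1 from colony 4. Fragments of the same colonies stood at both pH levels, so the colony is the replicate, and no library from before the treatment was analysed here. The same colony was sampled again at each week. Nothing in the labels says whether fragments stood in separate tanks, so p-values measure only the spread between these libraries. RNA came from whole polyps, in which fewer cells of a type and less RNA per cell cannot be told apart.

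Library totals ran from 18042191 to 25651213 counts. By likeness over every other transcript with at least 10 counts in total, the 18 libraries fell into 3 sets, A, B and C. Of these libraries, 5 lay outside the set that held most of their colony's libraries and are called the off-set libraries below. All 5 were pH 7.9 libraries: those of colony 1 at weeks 4.5 and 8.5 in set B, with most of colony 3, that of colony 3 at week 2 in set C, with colony 4, and those of colony 3 at weeks 4.5 and 8.5 in set A, with most of colony 1. The median Spearman correlation was 0.954 within sets and 0.892 between sets. Whether labels or fragments of the 5 off-set libraries were exchanged was not tested. It bears on the pH differences, the comparisons between weeks and the colony comparisons that use them. The colony labels are used below as given, and the pH differences of weeks 4.5 and 8.5 over all members are also given for pairs within a set. At week 2 set B held no library at pH 7.9. At weeks 4.5 and 8.5 the set A pair was colony 1 at pH 7.6 with colony 3 at pH 7.9, the set B pair was colony 3 at pH 7.6 with colony 1 at pH 7.9, and the set C pair was colony 4 at both pH levels.

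The members were transcripts of ordinary abundance. Their mean level over the 18 libraries ran from 1.10 to 268 CPM, with a median of 7.78 CPM, against a median of 6.11 CPM over the kept transcripts. The mean was under 5 CPM for 40 members. A count of 0 in at least 1 library occurred in 7 members, which is 7% of the members against 2.28% of the kept transcripts, and made up 10 of the 1800 combinations of member and library. A count of 0 allows a level of up to 0.117 to 0.166 CPM, depending on the library (3 counts of the total, for counting error only).

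At week 2 the members' medians lay on both sides of those of the kept transcripts. The members' median level in log2(CPM + 0.5) was 2.76 in colony 1, 3.59 in colony 3 and 2.47 in colony 4 at pH 7.6, against 2.92, 2.60 and 2.06 in colonies 1, 3 and 4 at pH 7.9. The median over the kept transcripts was 2.39 in colony 3 at pH 7.6 and 2.58 in colony 4 at pH 7.9. Colony 3 at pH 7.6 was the highest of these libraries, and the ranges at the 2 pH levels overlapped. At week 4.5 the medians were 2.58 in colony 1, 3.17 in colony 3 and 3.01 in colony 4 at pH 7.6, against 3.73, 3.22 and 3.56 in colonies 1, 3 and 4 at pH 7.9. All 3 libraries at pH 7.9 then lay above all 3 at pH 7.6. At week 8.5 the medians were 1.79 in colony 1, 0.99 in colony 3 and 1.19 in colony 4 at pH 7.6, against 3.32, 2.79 and 3.08 in colonies 1, 3 and 4 at pH 7.9. The 3 libraries at pH 7.6 and week 8.5 held the lowest medians of all 18. The rule set them against pH 7.9 of the same week. Its ranking also set the pH difference of week 8.5 against that of week 2, so the choice itself favoured low levels here. Over the kept transcripts the median stayed between 2.39 and 2.84 in every library.

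**Figure D1:**
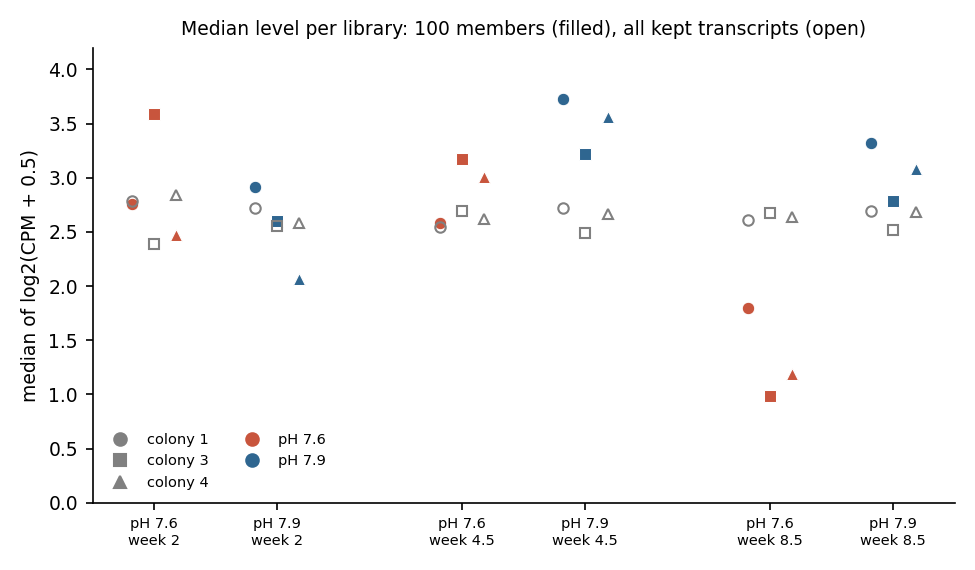
Median level of the 100 members (filled) and of all 41829 kept transcripts (open) in each of the 18 libraries, in log2(CPM + 0.5), by pH and week; shapes give the colony. The members' medians at pH 7.6 and week 8.5 are 1.79, 0.99 and 1.19, against 3.32, 2.79 and 3.08 at pH 7.9, while the open symbols stay between 2.39 and 2.84.

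The late difference, which chose the members, is given without a test. At week 8.5 the median pH difference over members was -1.27 in colony 1, -1.43 in colony 3 and -1.57 in colony 4. The mean over colonies ran from -3.66 to -0.87, with a median of -1.51. All 3 libraries at pH 7.6 lay below all 3 at pH 7.9 in 81 members; among the kept transcripts this held for 5.09%, and a pH difference of -0.5 or less in all 3 colonies for 1.71%. With pairs taken within library sets, the median difference was -0.86 in set A, -2.02 in set B and -1.57 in set C. In 94 members it was below 0 in all 3 of these pairs, against 23.4% of the kept transcripts, and in 80 it was -0.5 or less in all 3, against 3.03%.

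The early condition, also part of the choice, was met in different ways. At week 2 the median pH difference was 0.0074 in colony 1, 0.75 in colony 3 and 0.21 in colony 4, against 0.07, -0.22 and 0.17 over the kept transcripts in colonies 1, 3 and 4. The difference was 0 or more in 50 members in colony 1, in 78 in colony 3 and in 59 in colony 4. It was below 0 in 2 of the 3 colonies in 37 members, against 32.8% of the kept transcripts. It was 0 or more in all 3 colonies in 24 members, against 14.3% of the kept transcripts, and in colony 3 alone in 20 members. In colony 3 the pH 7.9 library of week 2 is off-set, so for those 20 members the early condition rests on a pair whose libraries lie in different sets. The other 80 met it in colony 1 or colony 4. The mean difference over colonies at week 2 ran from -0.69 to 1.94, with a median of 0.31. It was below 0 in 25 members, against 46.5% of the kept transcripts. In 14 members all 3 libraries at pH 7.6 lay above all 3 at pH 7.9, against 3.62% of the kept transcripts.

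Transcript_1136, first in the ranking, stood apart from the other members. At week 2 it had 87.7, 103 and 74.9 CPM at pH 7.6, against 31.3, 42.6 and 25.3 CPM at pH 7.9 (colonies 1, 3 and 4, here and in the lists that follow). At week 4.5 it had 9.20, 12.9 and 3.06 CPM at pH 7.6, against 70.0, 41.8 and 87.3 CPM at pH 7.9. At week 8.5 it had 1.50, 0.345 and 0.245 CPM at pH 7.6, against 44.4, 3.68 and 13.1 CPM at pH 7.9. The groups did not overlap at any week: all libraries at pH 7.6 were above those at pH 7.9 at week 2 and below them at weeks 4.5 and 8.5. The lowest of these levels, in colony 4 at pH 7.6 and week 8.5, rested on 6 counts.

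Transcript_63276, the second in the ranking, showed how far colonies could differ in the same member. At week 2 it had 84.4, 85.5 and 11.5 CPM at pH 7.6, against 43.9, 5.56 and 5.31 CPM at pH 7.9. At week 8.5 it had 113, 31.9 and 7.97 CPM at pH 7.6, against 204, 181 and 28.5 CPM at pH 7.9. Within every colony the order of the pH levels was opposite at weeks 2 and 8.5, yet the groups overlapped at both weeks, colony 4 being low throughout. The pH 7.9 library of colony 3 at week 2 is off-set, in set C, where this transcript averaged 12.7 ± 8.14 CPM (SD, n = 7), against 126.9 ± 78.3 CPM in set B (SD, n = 5), which holds the pH 7.6 library. Its pH difference of 3.83 in colony 3 at week 2, the highest of its differences, thus set libraries of different sets against each other. At week 4.5 it had 94.7, 211 and 16.9 CPM at pH 7.6, against 101, 40.7 and 13.2 CPM at pH 7.9, without a common direction.

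At the edge of the ranking the score, the mean pH difference at week 8.5 minus that at week 2, hardly separated members from non-members. The last member, Transcript_33916, had a score of -1.41 and a mean of 4.09 CPM. Its pH differences at week 8.5 were -1.24 in colony 1, -0.67 in colony 3 and -2.05 in colony 4. The first transcript past it, Transcript_56700, also had a score of -1.41, with -0.68, -2.28 and -0.52 in colonies 1, 3 and 4. Membership near the edge is thus decided by differences far smaller than those between colonies.

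The 2 most abundant members had, on average over colonies, their widest pH difference at week 8.5, when their level at pH 7.9 was highest. Transcript_37400 had 205, 196 and 87.9 CPM at pH 7.6 and week 2, against 160.0, 135 and 138 CPM at pH 7.9. At week 8.5 it had 396, 191 and 117 CPM at pH 7.6, against 583, 534 and 583 CPM at pH 7.9. Its 3 libraries at pH 7.9 lay close together at week 8.5 and above every other library of the series. Transcript_34070 had 438, 51.4 and 56.6 CPM at pH 7.6 and week 2, against 249, 43.9 and 48.8 CPM at pH 7.9. At week 8.5 it had 330.0, 91.1 and 72.2 CPM at pH 7.6, against 718, 553 and 712 CPM at pH 7.9. Colony 1 was the highest colony at both pH levels at week 2, and at week 8.5 the levels of the 3 colonies at pH 7.9 stood closer to each other in ratio than at week 2.

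**Figure D2:**
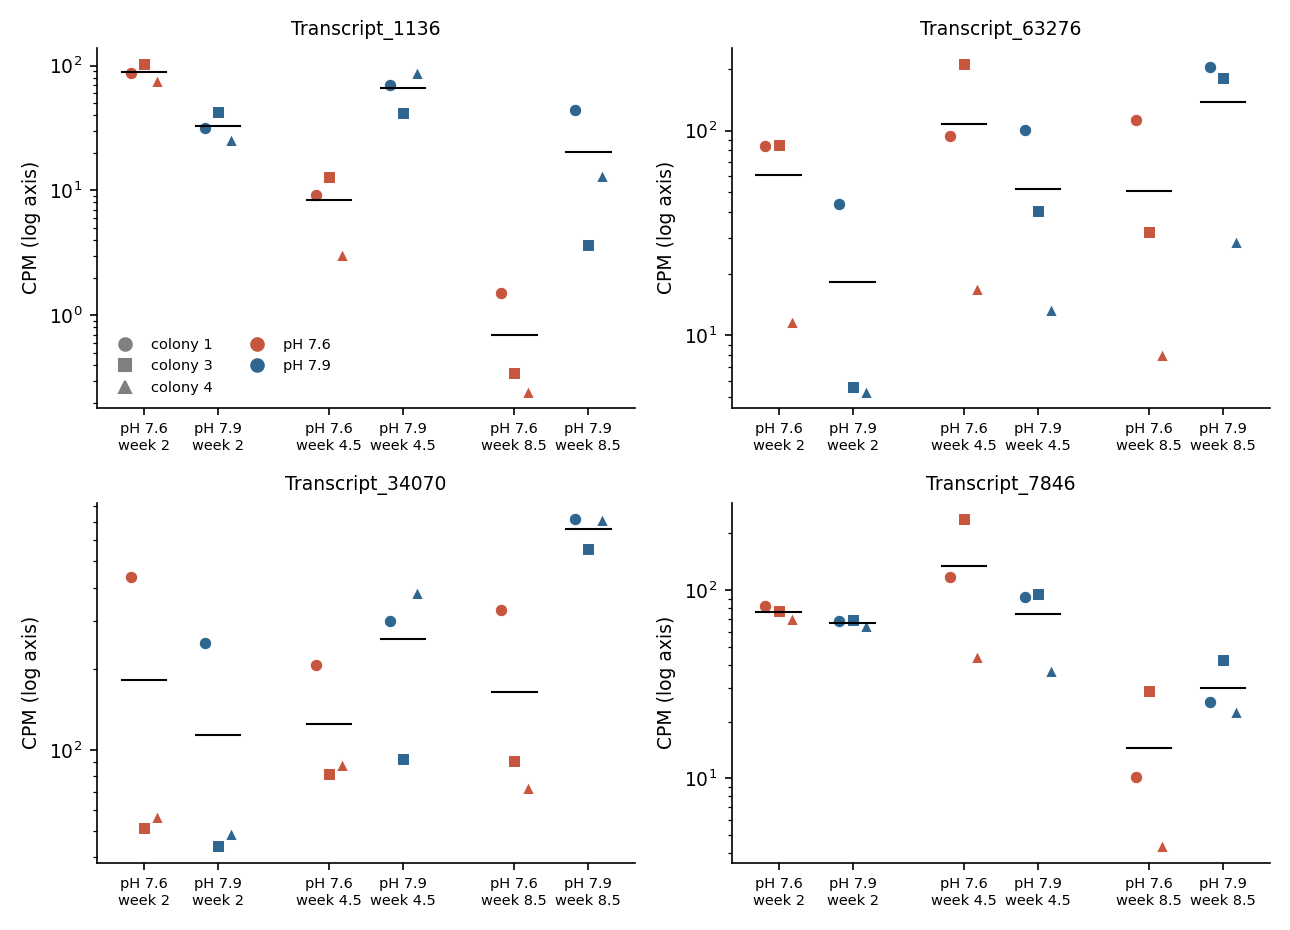
CPM of 4 members in each of the 18 libraries, on log axes, by pH and week; shapes give the colony and horizontal lines the mean of 3 libraries. At week 8.5 Transcript_1136 stands at 1.50, 0.345 and 0.245 CPM at pH 7.6, below all its other libraries, and Transcript_34070 at 718, 553 and 712 CPM at pH 7.9, above all its others.

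Members thus reached the late difference with different courses, and the level at each pH was followed over time. Between week 8.5 and week 2 the mean log2 level at pH 7.6 differed by a median of -1.24 over members (quartiles -2.14 and -0.57) and was lower at week 8.5 in 90 of them, against 48.0% of the kept transcripts. At pH 7.9 the median was 0.44 (quartiles -0.09 and 1.13), and 31 members were lower at week 8.5, against 47.8%. Over the kept transcripts both medians were 0.02. The rule fixes the difference between these values but not how it is divided between the pH levels, and no test was made of the division. The change was larger in size at pH 7.6 than at pH 7.9 in 69 members. At pH 7.6 each colony stayed in the same library set over the weeks. At pH 7.9 colony 1 was in set A at week 2 and in set B later. Colony 3 was there in set C and then in set A. In them a change from week 2 at pH 7.9, here and in the kinds below, cannot be told apart from a change of set.

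With a step of 0.5 on the log2 scale, members fell into 4 kinds. The ranking favours a change at pH 7.6 well below that at pH 7.9, which by itself leaves out most other kinds. In 33 members the level at week 8.5 was lower than at week 2 at pH 7.6 and within 0.5 at pH 7.9. The kept transcripts held 2660 of this kind among 41829. In 19 it was lower at both pH levels, against 1733 kept transcripts, and less so at pH 7.9, as the ranking requires. In 24 it was lower at pH 7.6 and higher at pH 7.9, against 171. In the other 24 it stayed within 0.5 at pH 7.6 and was higher at pH 7.9, against 3923. For these the larger change was the higher level at pH 7.9. Their change at pH 7.6 was above 0 in 10 and below 0 in the others, down to -0.50 in Transcript_63276. Transcript_1136 is of the second kind and Transcript_34070 of the last.

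**Figure D3:**
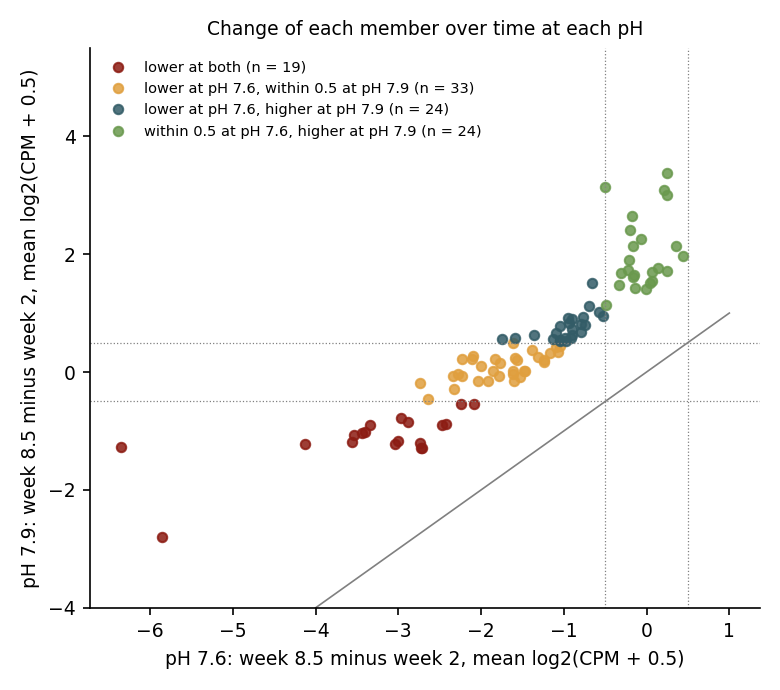
Mean log2(CPM + 0.5) at week 8.5 minus week 2 of each of the 100 members, at pH 7.6 (horizontal axis) and at pH 7.9 (vertical axis); dotted lines mark 0.5 in either direction and the solid line equal change. All points lie above the line of equal change, as the choice of members requires, and spread along it in 4 kinds of 19, 33, 24 and 24 members.

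The course over the 3 weeks differed between the pH levels, as a description only, since the levels of weeks 2 and 8.5 chose the members. From week 2 to week 4.5 the median change over members was 0.09 at pH 7.6 and 0.83 at pH 7.9, where 7 members were lower at week 4.5, against 52.8% of the kept transcripts. From week 4.5 to week 8.5 it was -1.44 at pH 7.6, where 91 members were lower at week 8.5, against 43.7%, and -0.43 at pH 7.9, where 67 were lower, against 45.7%. The median over members of the mean log2 level was 2.71, 2.93 and 1.22 at pH 7.6 at weeks 2, 4.5 and 8.5, against 2.39, 3.35 and 3.08 at pH 7.9. The median was thus highest at week 4.5 at both pH levels, and at pH 7.6 it was lowest at week 8.5. At pH 7.9 colonies 1 and 3 lay in other library sets at week 2 than at weeks 4.5 and 8.5. In these colonies the rise from week 2 to week 4.5 at pH 7.9 cannot be told apart from a change of set.

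The limits on level used the mean over all 18 libraries, but the pH difference of week 4.5 took no part in the choice. The pH difference at week 4.5 could therefore be tested. No member passed the test there: with edgeR's quasi-likelihood test and Benjamini-Hochberg adjustment over 56223 transcripts, 0 members were called lower and 0 higher, and 0% of all transcripts were called in either direction. At an unadjusted p below 0.05, 11 members were lower and 1 was higher, against 0.749% lower and 1.4% higher among all transcripts tested. DESeq2 called 1 member lower, Transcript_1136, beside 0.00534% of all transcripts called lower. The median log2 fold change, pH 7.6 over pH 7.9, was -0.75 over the members and -0.04 over all transcripts tested, and it was below 0 in 85 members and in 54.0% of all. Without colonies 1, 3 and 4 the median over the members was -0.29, -0.89 and -0.89, and it was below 0 in 70, 79 and 82 members, so that the size rested most on colony 1.

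On the mean over colonies, 80 members were lower at pH 7.6 at week 4.5, against 51.4% of the kept transcripts, as a description only. In colonies 1 and 3 the pairs of week 4.5 join the same library sets as the pairs of week 8.5, which chose the members. In these pairs a difference between sets cannot be told apart from a difference between pH levels. The size of the difference at week 4.5 varied between colonies. The median pH difference was -1.25 in colony 1, -0.04 in colony 3 and -0.54 in colony 4, against -0.14, 0.18 and -0.05 over the kept transcripts in colonies 1, 3 and 4. It was below 0 in 79, 53 and 76 members in colonies 1, 3 and 4, against 58.5%, 38.3% and 54.6% of the kept transcripts. It was below 0 in all 3 colonies in 33 members, against 10.5% of the kept transcripts, and -0.5 or less in all 3 in 8 members, against 0.426%. All 3 libraries at pH 7.6 lay below all 3 at pH 7.9 in 16 members, against 3.58%, and the reverse held for 1 member, against 4.93%. In 4 members the difference was 0 or more in all 3 colonies, against 12% of the kept transcripts.

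The count of members lower in all colonies moved most with colony 3. Without it, the difference was below 0 in both remaining colonies in 64 members, against 34.1% of the kept transcripts. Leaving out a colony drops a condition, which can only raise the count. The 2 libraries of colony 3 at week 4.5 lie in different library sets, as do those of colony 1. Paired within sets, the median difference at week 4.5 was -0.58 in set A, -0.74 in set B and -0.54 in set C. It was below 0 in 75, 75 and 76 members, and in all 3 pairs in 54 members, against 19.2% of the kept transcripts, and it was -0.5 or less in all 3 pairs in 26 members, against 1.4%. The 3 pairs were thus closer to each other by set than by colony label. The number of members lower in all of them was larger, as was the share of the kept transcripts, at 19.2% against 10.5% by label.

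**Figure D4:**
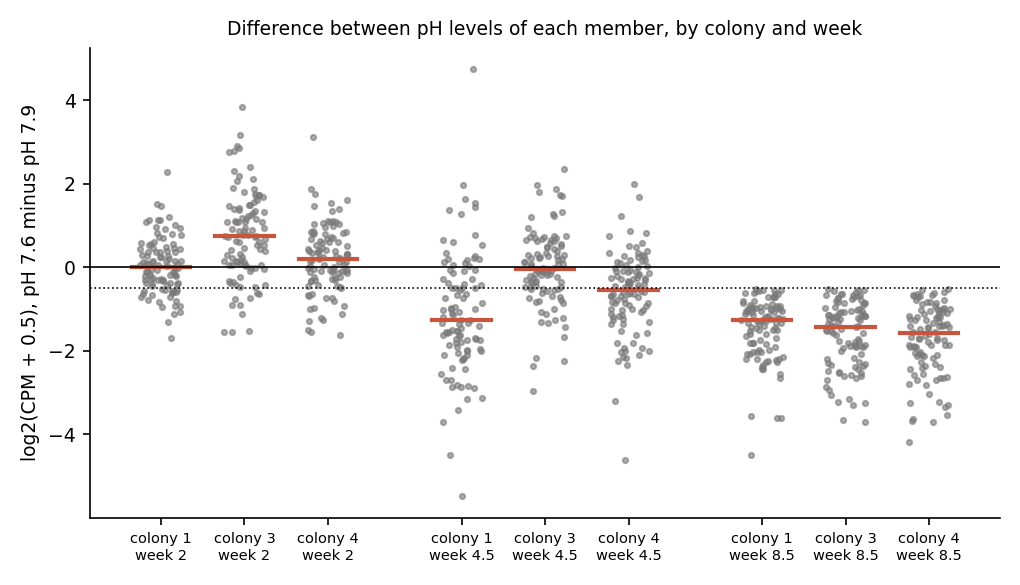
pH difference, log2(CPM + 0.5) at pH 7.6 minus pH 7.9, of each of the 100 members by colony and week; red lines give medians and the dotted line the limit of -0.5 used at week 8.5. At week 4.5, whose pH difference the choice did not use, the medians are -1.25, -0.04 and -0.54 in colonies 1, 3 and 4.

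The member with the smallest p at week 4.5 was Transcript_1136, whose libraries at pH 7.6 were all below those at pH 7.9. Its mean was 8.39 ± 4.97 CPM at pH 7.6 and 66.4 ± 23.0 CPM at pH 7.9 (SD, n = 3 each), a log2 fold change of -3.14 ± 0.73 (SE). edgeR gave an unadjusted p of 0.000758 and an adjusted p of 1.00, and DESeq2 an adjusted p of 0.0104; the adjusted p ran from 0.0104 to 1.00 over 10 alternatives. In the other direction the smallest p belonged to Transcript_35249, with 23.3, 51.7 and 35.9 CPM at pH 7.6, against 15.0, 32.5 and 15.0 CPM at pH 7.9. It was higher at pH 7.6 in all 3 colonies, with overlapping groups. Paired within sets it was lower at pH 7.6 in set A, at 23.3 CPM against 32.5 CPM, and higher in sets B and C. Its log2 fold change of 0.82 ± 0.37 (SE) had an unadjusted p of 0.0413 and an adjusted p of 1.00 in edgeR. At week 8.5 the same transcript had 9.28, 6.46 and 6.46 CPM at pH 7.6, against 18.1, 23.0 and 35.7 CPM at pH 7.9, so its order was opposite to that at week 4.5 in every colony.

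Levels over both pH were compared between weeks. These comparisons weigh pH 7.6 and pH 7.9 equally, but they use the week 2 and week 8.5 values that also chose and ranked the members. Their counts, p-values and distance from the background therefore describe the members and are no independent support. The same holds for the transcripts named below for these comparisons. Comparisons with week 2 also cross library sets at pH 7.9 in colonies 1 and 3. At week 8.5 against week 2, edgeR called 20 members lower and 0 higher, against 0.854% lower and 0.173% higher among all transcripts. The median log2 fold change was -0.56 over the members and 0.05 over all. All 20 called members were lower at week 8.5 at both pH levels, by a median of -2.98 at pH 7.6 and -1.05 at pH 7.9. Of the members higher at week 8.5, 11 had an unadjusted p below 0.05, against 5.03% of all transcripts, and DESeq2 called 5, against 0.943%. The count called lower was 0 without colony 1, 2 without colony 3 and 0 without colony 4, against 0.00177%, 0.182% and 0.0447% of all. At an unadjusted p below 0.05, 42, 33 and 34 members were lower in these 3 fits, against 6.26%, 7.4% and 3.68%.

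Transcript_1136 had the smallest p of these, with a mean of 10.5 ± 17.3 CPM at week 8.5 and 60.7 ± 32.0 CPM at week 2 (SD, n = 6 each). Its log2 fold change was -4.12 ± 0.56 (SE, adjusted p = 0.00697 in edgeR). Transcript_65098 had 0.660, 0.431 and 0.450 CPM at pH 7.6 and 2.04, 1.60 and 1.75 CPM at pH 7.9 at week 8.5, against 4.39, 6.21 and 4.88 CPM at pH 7.6 and 5.82, 3.53 and 2.61 CPM at pH 7.9 at week 2. All libraries of week 8.5 were below all of week 2, and the log2 fold change was -2.24 ± 0.31 (SE, adjusted p = 0.00697 in edgeR). Without colony 1 the adjusted p was 0.0698 for Transcript_1136 and 0.0729 for Transcript_65098, and without colony 4 it was 0.181 and 0.165 for these 2 transcripts; for Transcript_65098 it was 0.0619 without colony 3 and 0.0557 without the 5 off-set libraries. Over 9 alternatives the adjusted p ran from 4.00e-14 to 0.181 for Transcript_1136 and from 7.64e-09 to 0.165 for Transcript_65098. In the higher direction no member was called, and the smallest p was that of Transcript_34070, with a log2 fold change of 1.63 ± 0.39 (SE, adjusted p = 0.0693 in edgeR, with 0.00217 to 0.566 over 9 alternatives). It was called with DESeq2 (adjusted p = 0.00217) and without the off-set libraries (adjusted p = 0.0253).

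At week 4.5 against week 2, edgeR called 0 members in either direction, against 0.0374% lower and 0.00534% higher among all transcripts. The median log2 fold change was 0.50 over the members and 0.02 over all, with an unadjusted p below 0.05 for 1 member lower and 22 higher, against 5.19% and 4.84% of all. DESeq2 called 0 lower and 8 higher, against 1.03% and 0.731%. Without colony 3, edgeR called 6 higher, against 0.194%. At week 8.5 against week 4.5, edgeR called 27 members lower and 0 higher, against 0.576% lower and 0.0551% higher among all transcripts. The median was -1.16 over the members and 0.04 over all. All 27 were lower at both pH levels, by a median of -2.40 at pH 7.6 and -1.66 at pH 7.9, and 18 of them were also called at week 8.5 against week 2. The count was 0, 1 and 0 without colonies 1, 3 and 4, and 0 without the 5 off-set libraries, against 0%, 0.0194%, 0% and 0.00329% of all. At an unadjusted p below 0.05, 62, 61, 49 and 51 members were lower in these 4 fits, against 3.99%, 5.55%, 2.63% and 3.94%. Of the members higher at week 8.5, 3 had an unadjusted p below 0.05, against 2.79% of all, and DESeq2 called 1, against 0.333%.

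Transcript_34245 had the smallest p of the later interval. It had 1.89, 1.94 and 3.43 CPM at pH 7.6 and 5.66, 6.49 and 5.21 CPM at pH 7.9 at week 8.5, against 8.50, 24.3 and 21.2 CPM at pH 7.6 and 28.4, 16.9 and 15.0 CPM at pH 7.9 at week 4.5. The weeks did not overlap, and the log2 fold change was -2.37 ± 0.30 (SE, adjusted p = 0.0151 in edgeR). Transcript_7846 had 10.1, 28.9 and 4.33 CPM at pH 7.6 and 25.3, 42.4 and 22.6 CPM at pH 7.9 at week 8.5, against 118, 239 and 44.1 CPM at pH 7.6 and 92.0, 95.5 and 37.0 CPM at pH 7.9 at week 4.5. In each colony and at each pH it was lower at week 8.5, although the 2 weeks overlapped over colonies, with a log2 fold change of -2.31 ± 0.30 (SE, adjusted p = 0.0153 in edgeR). Without the 5 off-set libraries the adjusted p was 0.105 for both. Without colonies 1, 3 and 4 it was 0.0700, 0.0620 and 0.199 for Transcript_34245, and for Transcript_7846 it was 0.142 without colony 1 and 0.155 without colony 4. Over 9 alternatives the adjusted p ran from 7.08e-11 to 0.199 for Transcript_34245 and from 5.41e-11 to 0.155 for Transcript_7846. No member was called higher; Transcript_6632 had the smallest p in that direction, with a log2 fold change of 1.13 ± 0.32 (SE, adjusted p = 0.193 in edgeR, with 0.0355 to 1.00 over 9 alternatives). It was called with DESeq2 (adjusted p = 0.0380) and with the library set as the term (adjusted p = 0.0355).

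Some members followed each other closely. Over the 18 libraries the correlation of log2 levels between members had a median Pearson r of 0.443, against 0.037 among 2092 kept transcripts taken at regular steps. Shared pH and week differences, which chose the members, enter these values. With the mean of each pH and week taken out, the medians were 0.185 over the members and 0.055 over the 2092 transcripts. Of 4950 pairs of members, 69 had r above 0.95, and joining these pairs gave a block of 15 members, the next largest holding 4. Within the block the lowest r was 0.817 and the median was 0.955. Only 1 pair of members had numbers within 2 of each other, Transcript_60701 and Transcript_60702 (r = 0.871).

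The block of 15 was found from these same levels and gets no test of its own. Its members had means of 2.94 to 89.6 CPM. All 15 were among the 20 called lower at week 8.5 against week 2, and 14 among the 27 called lower at week 8.5 against week 4.5. In 14 the level at week 8.5 was lower than at week 2 by 0.5 or more at both pH levels, so the block makes up most of the 19 members of that kind. At week 4.5 all 15 were lower at pH 7.6 in colony 1, 0 in colony 3 and 8 in colony 4. The block thus holds 15 of the 47 members that were not lower at pH 7.6 in colony 3 at week 4.5.

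The summed level of the block showed its course by library. At week 2 it was 534, 1175 and 558 CPM at pH 7.6, against 505, 451 and 368 CPM at pH 7.9. At week 4.5 it was 205, 757 and 564 CPM at pH 7.6, against 1315, 447 and 677 CPM at pH 7.9. At week 8.5 it was 49.9, 75.3 and 85.7 CPM at pH 7.6, against 273, 165 and 208 CPM at pH 7.9. Every library of week 8.5, at either pH, lay below every library of week 2. Those of week 8.5 also lay below those of week 4.5, except that the pH 7.6 library of colony 1 at week 4.5 was within the range of pH 7.9 at week 8.5. The libraries of set B were the highest of their pH at week 2 for pH 7.6, and at week 4.5 for both pH levels. At week 8.5 the set B library was the highest at pH 7.9, with 273 CPM, but not at pH 7.6, with 75.3 CPM. Paired within sets at week 4.5, the sums were lower at pH 7.6 in each. They were 205 against 447 CPM in set A, 757 against 1315 CPM in set B and 564 against 677 CPM in set C. The other 85 members together held 1392, 611 and 579 CPM at pH 7.6 and week 8.5, against 2833, 2344 and 2721 CPM at pH 7.9.

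**Figure D5:**
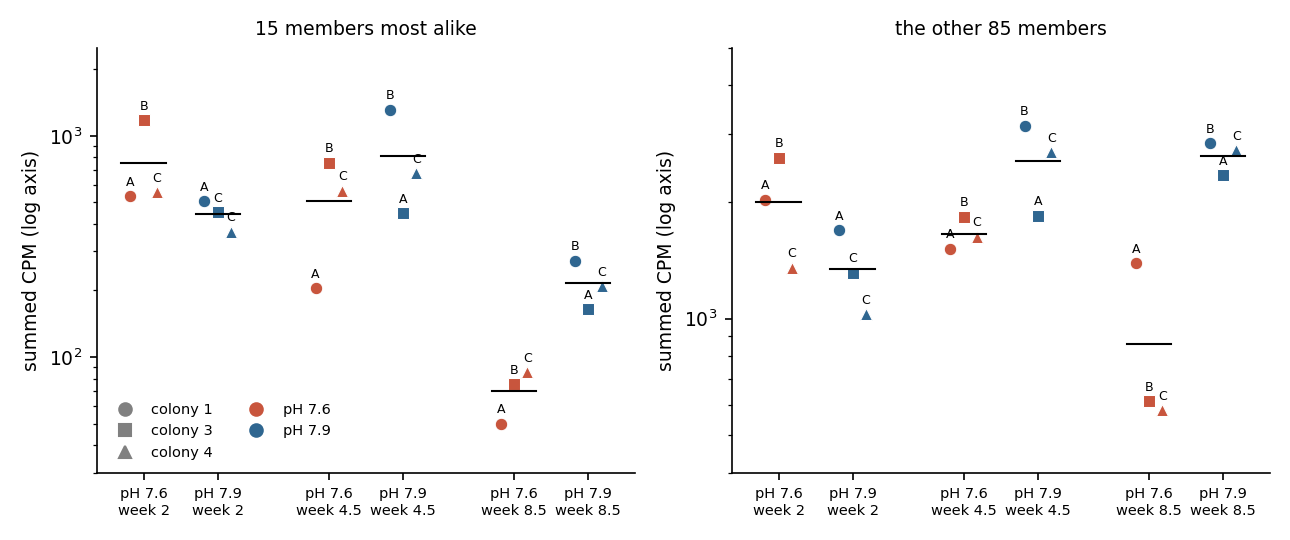
Summed CPM of the 15 members with the closest correlation (left) and of the other 85 members (right) in each library, on log axes, by pH and week; shapes give the colony, letters the library set and lines the mean of 3 libraries. At week 8.5 the block holds 49.9, 75.3 and 85.7 CPM at pH 7.6, against 273, 165 and 208 CPM at pH 7.9, all below its sums at week 2.

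Colonies were compared over all weeks and both pH levels, by their labels. In colony 4 against colony 1, edgeR called 15 members lower and 1 higher, against 6.6% lower and 5.35% higher among all transcripts. In colony 4 against colony 3 it called 8 lower and 1 higher, against 2.67% and 1.42%. In colony 3 against colony 1 it called 0, as for all transcripts (0% in each direction), with an unadjusted p below 0.05 for 13 members lower and 1 higher, against 3.29% and 2.89% of all. DESeq2 also called 0. Without the 5 off-set libraries, 8 members were called lower and 8 higher in colony 3 against colony 1, against 6.75% and 8.73% of all, and 15 lower and 1 higher in colony 4 against colony 3, against 7.27% and 6.73%. The count called higher in colony 4 against colony 1 was 5 without colony 3, against 12.3% of all. As plain shares of the 100 members, the counts lower in colony 4 lay above the background. The comparisons between colonies use libraries that also chose and ranked the members. Their counts and p-values, here and for the transcripts named next, are therefore a description and no independent support. At week 2 the ranking favoured colony 3 levels higher at pH 7.6, in set B, than at pH 7.9, in set C. Set C holds every library of colony 4, so the choice may itself have favoured low levels there, which was not tested.

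Transcript_63276 had the smallest p among members lower in colony 4. It averaged 13.9 ± 8.22 CPM in colony 4, against 107 ± 53.3 CPM in colony 1 and 92.6 ± 84.7 CPM in colony 3 (SD, n = 6 each). The log2 fold change was -3.08 ± 0.43 against colony 1 and -2.49 ± 0.44 against colony 3 (SE, adjusted p = 0.00341 and 0.0129 in edgeR). Transcript_55167 was higher in colony 4, at 2.03 ± 0.940 CPM against 0.771 ± 0.676 CPM in colony 1 (SD, n = 6 each), a log2 fold change of 1.54 ± 0.45 (SE, adjusted p = 0.0411 in edgeR). Transcript_60701 averaged 2.68 ± 2.09 CPM in colony 4, against 0.738 ± 1.01 CPM in colony 3, a log2 fold change of 2.33 ± 0.48 (SE, adjusted p = 0.0203 in edgeR, with 9.84e-05 to 0.0515 over 5 alternatives and the highest without colony 1). Both of these are among the low members, with counts from 2 to 70 for Transcript_55167 and from 3 to 132 for Transcript_60701. Between colonies 3 and 1 the smallest p in each direction belonged to Transcript_34070, with a log2 fold change of -1.81 ± 0.39 (SE), and Transcript_7846, with 0.70 ± 0.29 (SE), both with an edgeR adjusted p of 0.676. Over 5 alternatives the adjusted p ran from 0.000990 to 0.936 for Transcript_34070, which was called without the off-set libraries, and from 0.0636 to 0.936 for Transcript_7846.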

How the data were processed

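Single-end RNA sequencing libraries of coral polyps were analysed from the raw read counts that the authors deposited, 1 value per transcript in each of 36 columns. The 2 sequencing lanes of each of the 18 libraries were summed, after a chi-square comparison over transcripts with at least 50 counts gave 0.987 to 1.31 per degree of freedom. RNA was extracted with a Qiagen kit and sequenced on an Illumina HiSeq, per the labels' protocols. The submitters' processing notes name DESeq2, FastQC, cutadapt 1.15 and Trimmomatic 0.36. Not given in the sources used here are the transcript set, the aligner and the read counter, so reads shared by alleles, isoforms or near-identical transcripts may have been split or dropped. The labels number the time points 1 to 3, which were matched to weeks 2, 4.5 and 8.5 in the order the design lists them.

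The members and all groupings of them were chosen with earlier results of these data known. All 18 libraries were fitted together in edgeR 4.0.16 (R 4.3.3) and tested by its quasi-likelihood F test, with trimmed mean of M values (TMM) factors of 0.825 to 1.17, a mean for each pH and week and a colony term. Of the transcripts, 56223 passed filterByExpr (minimum count 10, minimum total 15), 0.195% of counts lay outside it, and Benjamini-Hochberg adjusted p below 0.05 was a call. The common dispersion was 0.21. Fold changes are pH 7.6 over 7.9, later over earlier week and first-named over second-named colony; standard errors are the log2 fold change over the square root of F. The colony term, a replicate block, follows from the labels, which place each colony at both pH. Deviations of a colony's pH libraries from their group means correlated above 0.1 in 5 of 9 pairs (-0.405 to 0.746); the others were colonies 1 and 3 at weeks 4.5 and 8.5. Library sets came from average linkage on 1 minus Spearman's correlation over every other transcript, and were the same on the remaining ones. DESeq2 1.42.0 served as an alternative test. The fit was also run on simulated counts, whose outcome is not given here and lends no support to the results.

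Named transcripts were the first 2 and last member by rank and the first one past it, the 2 most abundant members, and the members with the smallest p in each direction of a comparison (2 where called between weeks or pH levels, otherwise 1). Alternatives are given in the closing section.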

Additional observations from a re-analysis of the deposited data

Results flagged for a closer look

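Among 23 groups of 6 libraries examined for the named members, by week or by colony, 2 held a library far from the other 5; chance gives about 1 such group in 20 where libraries are alike. These groups mix pH levels or weeks and hold values that chose the members, so that rate does not apply to them as it stands. Gaps were taken on the log2(CPM + 0.5) scale. In Transcript_6632 at week 4.5 the pH 7.9 library of colony 4 had 10.1 CPM, against 2.69 to 4.49 CPM in the 5 other libraries of that week, and its gap to the nearest on the log2 scale was 0.626 of the range, just over the critical value of 0.625. In Transcript_34070 in colony 3 the pH 7.9 library of week 8.5 had 553 CPM, against 43.9 to 93.0 CPM in the 5 other libraries of that colony, a gap of 0.705 of the range on the log2 scale. Its level is part of the pH difference of -2.60 in colony 3 that helped choose this member. That library is also among the 5 off-set libraries, and its part in the value was not tested. The other libraries of pH 7.9 at week 8.5 had 718 CPM in colony 1 and 712 CPM in colony 4.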

How the results depend on the processing

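Of 137 alternative values of the main results, 100 stayed within 1.5 times the count or share, 37 moved and 0 reversed. Counts of 0 that stayed 0 are among the 100 and make up many of them, so the tally says little about counts above 0. The median log2 fold change at week 4.5 (-0.75) was judged by the SD between colonies (0.612), within which it stayed, though it was -0.29 without colony 1. Counts below are members called lower unless stated, and counts after "beside" are the same over all transcripts tested in that fit. With DESeq2 they were 1 for pH at week 4.5, beside 3 of 56223. For week 8.5 against 2 they were 32 (5 higher), beside 1444 (530 higher). For week 4.5 against 2, 8 were higher, beside 411. For week 8.5 against 4.5 they were 44 (1 higher), beside 1058 (187 higher), and for colony 4 against 3 they were 13 (3 higher), beside 3498 (2550 higher). With library sets as the term instead of colonies they were 31 (2 higher) for week 8.5 against 2, beside 1564 (612 higher) of 56223. For week 4.5 against 2, 3 were higher, beside 223. For week 8.5 against 4.5 they were 40 (1 higher), beside 1301 (216 higher). Without the 5 off-set libraries they were 13 (3 higher) for week 8.5 against 2, beside 180 (27 higher) of 60786. They were 0 for week 8.5 against 4.5, beside 2. For colony 4 against 1, 2 were higher, beside 5760, and for colony 4 against 3, 15 were lower, beside 4421. For colony 3 against 1, 8 were lower and 8 higher, beside 4103 and 5305. Leaving out each colony in turn gave 0 to 2 for week 8.5 against 2, beside 1 to 103 of 55931 to 56590. It gave 0 to 1 for week 8.5 against 4.5, beside 0 to 11, and 0 to 6 higher for week 4.5 against 2, beside 0 to 110. It gave 5 higher for colony 4 against 1, beside 6987 of 56590, and 5 lower for colony 4 against 3, beside 751 of 56436. The share of members lower in all pairs at week 4.5 was 33%, against 54% in pairs within a library set and 38% to 64% over the 2 other colonies when 1 was left out. Of the 100 members the rule kept 60 with a mean of at least 5 CPM, 44 with a limit of -1 at week 8.5, 36 with pairs within a library set, 63 with the week 2 condition in at least 2 colonies, and 11 to 62 without 1 colony, fewest without colony 3. Without the replicate block the counts were 19 in place of 20 for week 8.5 against 2, beside 441 of 56223. For week 8.5 against 4.5 they were 26 in place of 27, beside 290. No other side of the threshold changed for these counts. The cause of these differences was not tested; fewer libraries enter where a colony is left out. Of 104 values of named members, 84 kept their side of the threshold, 14 lost it, 6 gained it and 0 reversed. A share with TMM-scaled levels (35%) and a limit of r above 0.9 for the block (31 members in place of 15) were chosen after seeing the data. At totals of 18042191 to 25651213 counts, the lowest members rest on few counts, and precision is set mainly by 3 colonies per group.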
